A study of Mus musculus with 6 samples.

Results

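Ccdc8, a gene whose protein is one of the 3 subunits of the 3M complex, is described here together with 4 genes around it: the other complex genes Obsl1 and Cul7, the F-box partner Fbxw8, and Cul9, the closest relative of Cul7. The 5 genes were taken by symbol from a table of 34745 mouse genes. Ccdc8 was chosen because its counts differed between the groups in these same libraries, so its values are given as a description without a test. The other 4 were added for their place in or beside the complex. RNA was sequenced from MLE-12, a mouse lung epithelial cell line, in 3 libraries transfected with an NR4A1 overexpression plasmid (N1, N2 and N3) and 3 transfected with the pCMV-SPORT6 vector without it (S1, S2 and S3). NR4A1 is an orphan nuclear receptor, and the comparison asked what its excess does to the transcripts of these cells. The plasmid carried the mouse reading frame behind a CMV promoter and was introduced with a Lipofectamine reagent, so that all 6 libraries come from a single cell line after lipid transfection. The labels do not say whether replicates were separate cultures, and p-values then measure the spread between these libraries, which may be technical.

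The 3M complex is built from the scaffold cullin CUL7 and the 2 proteins OBSL1 and CCDC8, and loss of any one of them in people causes 3M syndrome, a primordial growth disorder with short stature. CUL7 also forms a ubiquitin ligase with the substrate receptor FBXW8, the adaptor SKP1 and a RING subunit, and the complex has been tied to microtubule and genome stability and to the Golgi. OBSL1 is a cytoskeletal linker of the obscurin and titin kind that holds CUL7 and CCDC8 together, CCDC8 brings the complex to the plasma membrane, and CUL9, also called PARC, is a large cytoplasmic cullin that binds p53.

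The total count was between 15019038 and 17574340 per library, and 3 counts correspond to between 0.171 and 0.200 CPM (counts scaled to a common library total, here with TMM factors), a limit that covers counting error only. Nr4a1, the overexpressed gene, was counted 50660, 60093 and 68555 times in N1 to N3 and 428, 510 and 463 times in S1 to S3, which fits the labels. N2 stood apart from the other libraries. It held 350 genes at 1 CPM or more and at least 10-fold above each other library (1.79% of the 19516 genes with a count), against 10 in S1, 1 in S2 and 0 in the other 3. Its summed smooth muscle markers reached 326 CPM against 1.49 to 2.95 in the other 5 libraries, its endothelial markers 132 against 14.1 to 16.6 and its Y chromosome genes 20.0 against 0 to 0.868. All 7 smooth muscle, 9 of 10 endothelial, 8 of 10 fibroblast and 4 of 4 Y chromosome genes were highest in N2. The endothelial markers Cdh5, Kdr, Tie1, Erg and Cldn5 were at 0 in the other 5 libraries. In N2 they had 419, 38, 192, 85 and 3 counts. Tek, the endothelial marker that was not highest in N2, had 89 counts there and 102 to 127 in the other 5. Of the lung epithelial markers, Nkx2-1 (946 to 1445 counts), Sftpc (1013 to 1389), Sftpb (189 to 336), Krt8, Krt19 and Cdh1 were present in all 6 libraries. Sftpa1 was at 0 in every library and Epcam, Cldn4 and Sftpd were at 22 counts or fewer. Krt18 had 164 counts in N2 and 2 to 21 in the other 5 libraries. In bulk RNA, fewer cells that express a gene and less RNA per cell cannot be told apart.

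Ccdc8 (ENSMUSG00000041117) lies on the plus strand at chr7:16992708-16997516 (GRCm38) as a gene of 1 exon with a reading frame of 685 codons. Cul7 (ENSMUSG00000038545; chr17:46650337-46664364, plus strand) and Cul9 (ENSMUSG00000040327; chr17:46500572-46546388, minus strand) lie on the same chromosome, 103.9 kb apart with 4 genes between them. Obsl1 (ENSMUSG00000026211) is at chr1:75479310-75506452 on the minus strand and Fbxw8 (ENSMUSG00000032867) at chr5:118064965-118155464 on the minus strand. The longest coding transcripts of Obsl1, Cul7, Fbxw8 and Cul9 have 20, 26, 11 and 41 exons and code for 1804, 1689, 598 and 2530 residues.

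NR4A1 binds DNA as a monomer at the element AAAGGTCA, called the NBRE, which extends the nuclear receptor half-site AGGTCA by AA. Both, and the intermediate AAGGTCA nested between them, were searched on both strands (reverse strand TGACCTTT, TGACCTT and TGACCT) in the RefSeq promoter windows of GRCm38.p6, which run from 250 bases before a start to 50 bases from it on. The motifs were chosen with the results known. Windows were found for 4 of the 5 genes, namely Ccdc8, Obsl1, Cul7 and Cul9. None of the 4 held AAAGGTCA, which 1.51% of all 32851 windows hold. AAGGTCA (4.72% of windows) was in that of Ccdc8, and AGGTCA (16.3% of windows) in those of Ccdc8 and Cul7. The matches are shown because they set the windows of Ccdc8 and Cul7 apart from those of Obsl1 and Cul9. Each is a 30-base stretch in the direction of its gene's transcription, with the half-site or its reverse complement in capitals.
Ccdc8, chr7:16993904-16993933: agactgagcgcaAGGTCAgtttggagcggg
Cul7, chr17:46650225-46650254: agggggcagaaaTGACCTccaaggtcctat

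In Ccdc8 the half-site began 14 bases after the RefSeq start, on the coding strand, and was preceded by a single A of the extension. In the annotation of the table this stretch lies inside the gene, since the RefSeq start is 1194 bases downstream of the annotated one and upstream of the coding region that begins at 16994588. The whole Ccdc8 window lies inside its annotated exon, unlike those of Obsl1, Cul7 and Cul9. The bases before the annotated start of Ccdc8 were therefore not searched. In Cul7 the half-site lay on the opposite strand, between 101 and 96 bases before the start. A match describes letters in a window and no match says only that these letters were not in it. The windows also differed in CpG content, with 7 CpG in Ccdc8, 8 in Obsl1, 10 in Cul7 and 23 in Cul9 against a median of 7 over all windows.

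Ccdc8 was almost uncounted in the vector controls and was counted in each NR4A1 library. It had 25, 104 and 41 counts in N1, N2 and N3 and 2, 0 and 0 counts in S1, S2 and S3. In CPM these were 1.69, 6.20 and 2.37 against 0.116, 0 and 0, with means of 3.42 ± 2.43 and 0.0386 ± 0.0668 (SD, n = 3 each). Every NR4A1 library was above every vector control, and S2 and S3 had no count at all. Over all tested genes the NR4A1 libraries were all above the vector controls in 6.69%, a share printed as background only, since Ccdc8 was chosen on this contrast.

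The ratio of the group means was 88.6, and that of the pooled counts, 170 against 2, was 89.9 with an exact 95% counting interval from 24.5 to 748. This and the following intervals cover counting error only and leave out the spread between libraries. They are no test, since Ccdc8 was chosen on this contrast. The width of the interval for the pooled counts comes from the 2 counts of S1. This library also held more Y chromosome (0.868 CPM) and smooth muscle (2.95 CPM) marker signal than S2 and S3. Its endothelial sum was below theirs, at 14.1 CPM against 14.6 in S2 and 14.3 in S3. Tek and Egfl7, counted in every library, made up most of that sum. The fibroblast sum was 1345 CPM in S1 against 1249 in S2 and 1181 in S3. Of the fibroblast markers, Col1a2 had 284 counts in S1 against 14 and 10, and Thy1 25 against 0 and 0. Dcn and Lum were not highest in S1. Without S1 the vector controls had 0 counts, and the exact 95% counting interval of the ratio began at 32.1.

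N2 carried the highest value, 3.05 times the mean of N1 and N3, whereas N3 was 1.40 times N1. Since N2 was also the library with smooth muscle, endothelial and Y chromosome transcripts, Ccdc8 was computed without it. The ratio of group means was then 52.6, with a counting interval from 14.1 to 448. In N1 and N3, where Ccdc8 was at 1.69 and 2.37 CPM, the summed smooth muscle markers were 1.49 and 1.68 CPM against 1.81 to 2.95 in the vector controls. The endothelial sums there were 14.4 and 16.6 CPM against 14.1 to 14.6, and the Y chromosome sums 0.135 and 0.0578 CPM against 0 to 0.868. The part of the other transcripts of N2 in its higher Ccdc8 value was not tested. Ccdc8 and Cul9 are set beside the marker sums of each library in the plot of other cell markers.

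**Figure D1:**
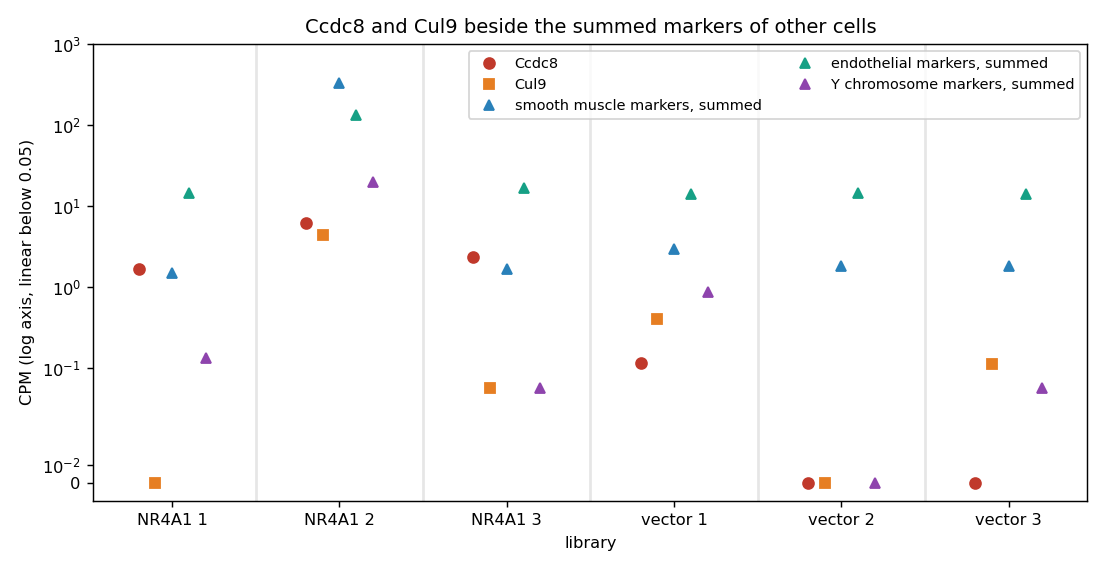
Level of Ccdc8 and Cul9 and summed level of smooth muscle, endothelial and Y chromosome genes in each of the 6 libraries, in CPM on a log axis that is linear below 0.05. Ccdc8 is at 1.69 CPM or more in all 3 NR4A1 libraries, whereas Cul9 and the marker sums are high in NR4A1 replicate 2.

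The mean FPKM of Ccdc8 (fragments scaled to gene length and library total, as deposited) was 0.705 ± 0.501 in the NR4A1 group and 0.00805 ± 0.0139 in the vector controls (n = 3 each). In the NR4A1 group this was at the 40.8th percentile of the 19516 genes with a count in any library, and in the vector controls at the 11.8th. Of its distinct 50-base stretches, 1.22% also occur in transcripts of other genes, and no annotated gene overlaps it or lies within 5 kb of it.

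Obsl1, the linker of the complex, did not differ detectably between the groups. It had 194, 250 and 263 counts in N1 to N3 and 287, 242 and 226 in S1 to S3. The CPM were 13.1, 14.9 and 15.2 against 16.6, 14.4 and 12.8 (means 14.4 ± 1.12 and 14.6 ± 1.91). The groups overlapped, with the highest and the lowest value both among the vector controls. The log2 fold change was -0.02 (SE 0.133, 95% interval -0.33 to 0.29, adjusted p = 0.987, edgeR's quasi-likelihood test with Benjamini-Hochberg adjustment over 12941 genes), an interval that runs from a fold of 0.793 to 1.22.

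Cul7, the cullin scaffold, was slightly lower with NR4A1 in each library, but the difference did not pass the test. It was counted 604, 755 and 747 times in N1 to N3 and 822, 762 and 845 times in S1 to S3. The CPM were 40.8, 45.0 and 43.2 against 47.6, 45.5 and 47.9 (means 43.0 ± 2.08 and 47.0 ± 1.31). All NR4A1 values were below all vector values, by 0.493 CPM between the nearest 2 libraries, N2 and S2. The log2 fold change was -0.13 (SE 0.0782, 95% interval -0.31 to 0.06, adjusted p = 0.845 in the same test).

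Fbxw8, the F-box protein that gives the CUL7 ligase its substrates, had a difference of similar size. It was counted 2352, 3132 and 3106 times in N1 to N3 and 3311, 3214 and 3303 times in S1 to S3. The CPM were 159, 187 and 179 against 192, 192 and 187 (means 175 ± 14.3 and 190 ± 2.67). All NR4A1 values were again below all vector values, N1 being the lowest and N2 within 0.507 CPM of S3. The log2 fold change was -0.12 (SE 0.0794, 95% interval -0.31 to 0.07, adjusted p = 0.867 in the same test).

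Of the 3 partners that passed the filter on low counts, 0 were called, which required a 2-fold change and an adjusted p below 0.05, and 0 had an unadjusted p under 0.05. Over all tested genes 22 of 12941 were called (0.170%). DESeq2, edgeR's exact test and limma-voom also called 0 partners. The NR4A1 libraries were all below the vector controls for 2 of the 3 (Cul7 and Fbxw8), against 6.22% of all tested genes, and no test was made of so small a count. The plot of the members by library shows the groups of Ccdc8 far apart and those of the partners overlapping or close.

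**Figure D2:**
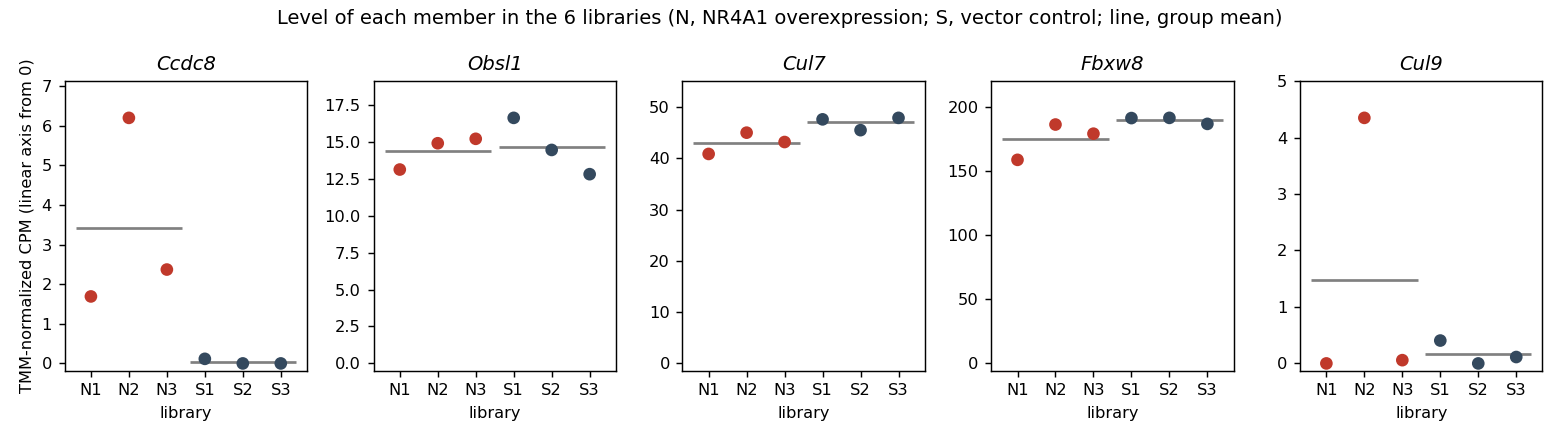
TMM-normalized CPM of Ccdc8, Obsl1, Cul7, Fbxw8 and Cul9 in NR4A1 libraries N1 to N3 (red) and vector controls S1 to S3 (dark), each panel on its own linear axis from 0, with lines at the group means. Ccdc8 lies between 1.69 and 6.20 CPM with NR4A1 and at 0.116 CPM or less without it, while the Cul7 groups are 0.493 CPM apart and those of Obsl1 overlap.

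Cul9, the p53-binding relative of Cul7, was counted in 1 library for the most part. It had 0, 73 and 1 counts in N1, N2 and N3 and 7, 0 and 2 in S1, S2 and S3, so that 88.0% of its 83 counts came from N2. The CPM were 0, 4.35 and 0.0578 against 0.405, 0 and 0.113. N2 was 10.7 times the next library, which puts Cul9 among the 1.79% of counted genes with that pattern, and the groups overlapped.

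The default filter removed Cul9 and it has no p-value from the main comparison. The difference of its mean log2 CPM (prior count 2) was 0.90 with all libraries and -0.75 without N2, where 1 count stood against 9. Without the filter, the quasi-likelihood test gave a log2 fold change of 3.03 (SE 1.79, adjusted p = 0.808), a different measure from the 0.90. The vector library with the most Cul9, S1, was also the one with the 2 Ccdc8 counts and the higher Y chromosome sum. Its endothelial sum was not higher (14.1 CPM against 14.6 in S2 and 14.3 in S3), with Tek and Egfl7 making up most of that sum. Its fibroblast sum was higher (1345 CPM against 1249 in S2 and 1181 in S3). The part of these marker transcripts in the Cul9 counts of N2 and S1 was not tested.

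The 2 genes with an N2 maximum behaved differently outside N2. Ccdc8 was chosen on this contrast, so its counts in N1 and N3 were part of that choice. In N1 and N3 Ccdc8 had 25 and 41 counts where Cul9 had 0 and 1. In N2 the Cul9 count was 0.702 times that of Ccdc8.

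Levels were compared between the 5 genes in FPKM, which divides by gene length. In the vector controls Fbxw8 was highest with 31.8 ± 0.508, followed by Cul7 with 4.15 ± 0.0996 and Obsl1 with 0.986 ± 0.128 (n = 3). Cul9 (0.00989 ± 0.0120) and Ccdc8 (0.00805 ± 0.0139) came last and did not differ from each other beyond their spread. The first 3 were at the 92.3rd, 60.9th and 44.3rd percentile of the genes with a count.

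The proportions of the 3 expressed partners lay within a narrow range over all 6 libraries. The FPKM of Fbxw8 was 7.38 to 7.99 times that of Cul7, and that of Cul7 was 3.72 to 4.90 times that of Obsl1. Obsl1 was 46.3 times Ccdc8 in S1, the single vector control with Ccdc8 counts. With NR4A1 it was 2.50, 0.775 and 2.07 times Ccdc8 in N1, N2 and N3, so that Ccdc8 passed Obsl1 in N2. That crossing depends on the length used. The FPKM of the table imply a length of 14919 bases for Obsl1 and 4809 for Ccdc8, whereas the merged exons of GENCODE M21 sum to 8467 and 4809 bases. With the merged lengths Obsl1 stood at 1.74 FPKM and Ccdc8 at 1.28 FPKM in N2, and the order of the means of Fbxw8, Cul7 and Obsl1 in the vector controls was the same (34.6, 6.38 and 1.74 FPKM).

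Among the cullins of these cells Cul7 was expressed at the lower end. In the vector controls Cul1, the scaffold of the SCF ligases, had 38.6 FPKM and was 9.31 times Cul7. Cul4a, Cul3, Cul4b and Cul2 followed with 24.0, 19.1, 16.5 and 9.33 FPKM. Cul5 had 4.53 FPKM with libraries from 4.17 to 5.03, which overlapped the 4.03 to 4.22 of Cul7, and Cul9 was the last of the 8. With the merged exon lengths the ranks of the cullins were the same, with Cul7 at 6.38 FPKM and Cul5 at 7.15. Among the F-box genes with WD repeats the CUL7 partner Fbxw8 was first instead. Fbxw8 was 2.11 times the next gene, Fbxw11, which had 15.1 FPKM, and the ranges of the vector libraries did not overlap. With the merged lengths it was 1.10 times Fbxw11 (34.6 and 31.5 FPKM), so that the size of this lead depends on the length used. The plot of the cullin and FBXW families gives these levels.

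**Figure D3:**
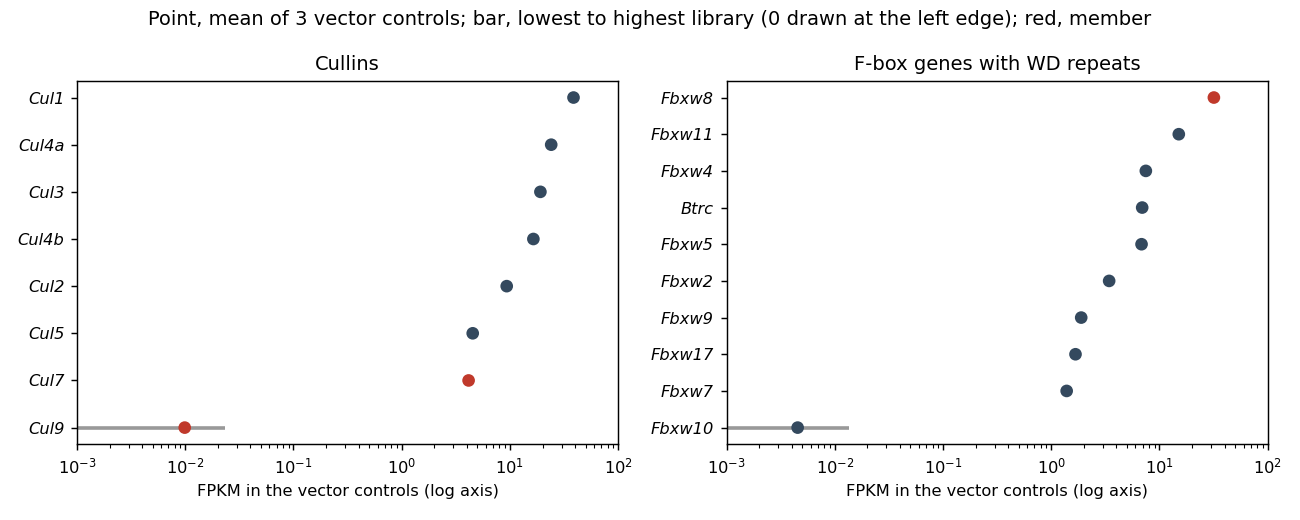
FPKM of the 8 cullins (left) and 10 F-box genes with WD repeats (right) in the 3 vector controls on a log axis, with points at the mean and bars from the lowest to the highest library. Of the members, drawn in red, Cul7 ranks 7 and Cul9 ranks 8 among the cullins and Fbxw8 ranks 1 among the F-box genes.

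The other subunits and regulators that the CUL7 ligase shares with its relatives were measured next, in lists chosen by function. Across the 8 lists 63 genes passed the filter and 0 were called by edgeR's quasi-likelihood test, against 22 of 12941 tested genes (0.170%). At so low a share, 0 calls among 63 genes say little about the lists. DESeq2, the exact test and limma-voom also called 0 list genes. In the quasi-likelihood test 5 of the 63 had an unadjusted p under 0.05, against 836 of all tested genes (6.46%). Of these 63, 4 had all NR4A1 libraries above the vector controls and 5 all below, close to the shares of all tested genes (6.69% and 6.22%). The median log2 fold change over all tested genes was 0.01.

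The other cullins with the RING subunits and the SKP1 adaptor had a median log2 fold change of 0.02 over 9 tested genes, from -0.05 for Cul2 to 0.18 for Cul5. The enzymes that attach the ubiquitin-like protein NEDD8 to cullins, with the exchange factors, had a median of 0.09 over 12 tested genes, from -0.10 for Dcun1d2 to 0.25 for Glmn, a cullin ligase inhibitor. For the COP9 signalosome, which removes NEDD8 again, the median was 0.01 over 9 genes, from -0.13 for Cops3 to 0.14 for Cops2. None of these 3 lists had a gene with an adjusted p under 0.713.

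The F-box genes with WD repeats other than Fbxw8 had a median of -0.02 over 8 tested genes. Fbxw7, the substrate receptor for cyclin E and MYC, was highest with a log2 fold change of 0.42 (SE 0.151, adjusted p = 0.678). Its CPM were 23.0, 18.8 and 15.7 in N1 to N3 and 14.5, 13.4 and 15.01 in S1 to S3, so that the groups did not overlap. Fbxw17 was lowest with -0.21 (SE 0.1004, adjusted p = 0.809), with 13.3, 13.9 and 12.5 CPM against 15.1, 15.4 and 15.3.

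The list drawn up as substrates and partners of the complex had a median of -0.05 over 9 tested genes. Whether each of their proteins, HDAC5 among them, binds the complex or is modified through it was not examined here. The lowest was Hdac5, a class IIa histone deacetylase, with a log2 fold change of -0.28 (SE 0.0838, adjusted p = 0.530). Its CPM were 241, 246 and 274 in N1 to N3 and 297, 299 and 331 in S1 to S3, all NR4A1 values being below all vector values. The highest was Map4k1, a kinase that FBXW8 targets, with 0.09.

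The relatives of Obsl1 and of Ccdc8 gave few testable genes. The obscurin and titin relatives had a median of 0.21 over 4 tested genes of 7, from -0.15 for Mylk, the myosin light chain kinase, to 0.35 for Myom1, a muscle M-band protein with 15 to 29 counts. Of the PNMA family, retrotransposon-derived genes to which Ccdc8 has been related, 9 were in the table and 6 had a count. The 2 tested were Pnma2 (log2 fold change -0.18) and Moap1 (0.04), and Pnmal1, Pnma3 and Zcchc12 were at 0 counts in all 6 libraries.

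The growth hormone and IGF axis, named for the growth disorder that loss of the complex causes, had a median of 0.03 over 11 tested genes, from -0.17 for Igfbp2 to 0.85 for Ghr, the growth hormone receptor. Ghr had 370, 684 and 349 counts in N1 to N3 and 315, 248 and 260 in S1 to S3. Its CPM were 25.0, 40.7 and 20.2 against 18.2, 14.8 and 14.7, with N2 the highest and N1 and N3 also above all vector controls. The difference did not pass the test (SE 0.255, adjusted p = 0.556). In this list 3 untested genes had at least 1 CPM in N2 and 10-fold or more above each other library. They were the growth factor gene Igf2 (24 counts in N2 and 0 elsewhere) and the binding protein genes Igfbp3 (365 counts in N2) and Igfbp7 (651 counts in N2). In S1 Igfbp3 and Igfbp7 had 13 and 39 counts, more than in the other 4 libraries. The fold changes of the tested partners and of all lists are drawn in the plot of partners and lists.

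**Figure D4:**
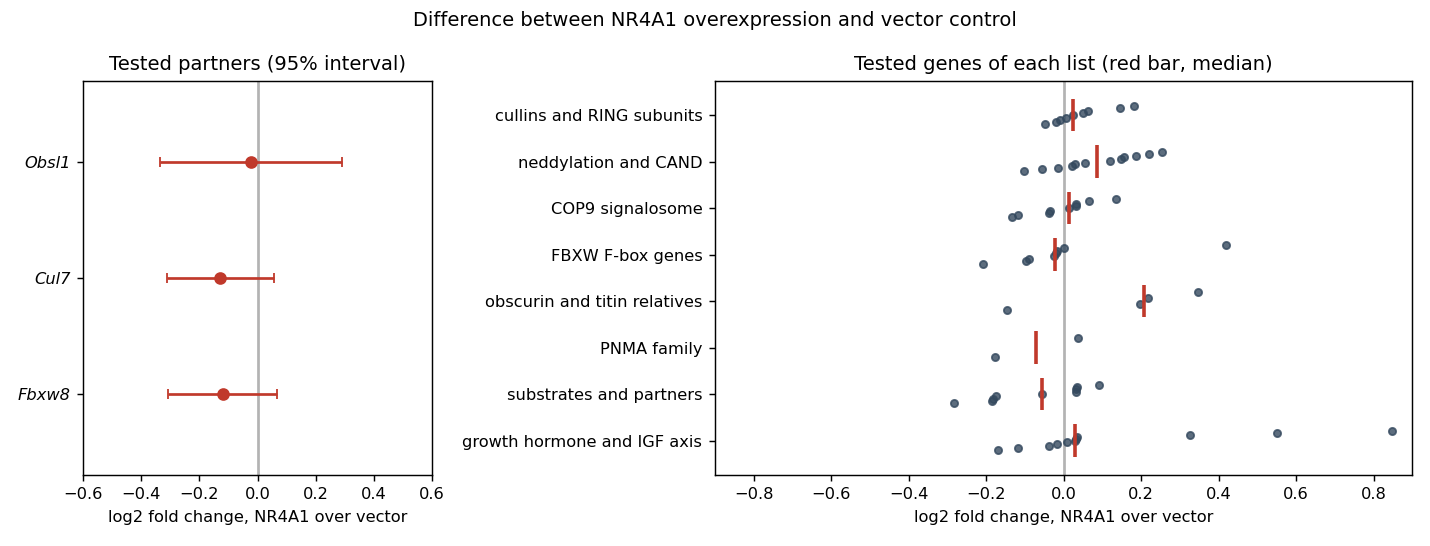
Log2 fold change between NR4A1 overexpression and vector control for Obsl1, Cul7 and Fbxw8 with 95% intervals (left) and for each tested gene of the 8 lists with its median as a red bar (right). The 3 intervals include 0, and the list medians lie between -0.07 and 0.21.

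The chromosome 7 neighbourhood of Ccdc8 was then examined gene by gene. Of 20 annotated genes within 250 kb, 14 had a count and 8 were tested. The tested genes with their middle within 150 kb were Calm3, a calmodulin gene, Ppp5c, Dact3, 9330104G04Rik and Prkd2. Of all 8, none was called, none had groups that did not overlap, and the log2 fold changes ran from -0.15 for Ppp5c to 0.08 for 9330104G04Rik. Over all tested genes 0.170% were called. The NR4A1 libraries were all above the vector controls in 6.69% and all below in 6.22%. With so few neighbours no test was made.

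Ppp5c, a serine/threonine phosphatase gene 7124 bases downstream on the other strand, is the nearest tested gene. It had 57.9, 65.1 and 62.0 CPM in N1 to N3 and 64.4, 70.4 and 70.1 CPM in S1 to S3 (adjusted p = 0.840). The groups overlapped.

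Hif3a, a hypoxia-inducible factor gene 33991 bases from Ccdc8, was not tested and had 0, 64 and 0 counts in N1 to N3 and 1, 0 and 0 in S1 to S3. Nearly all of its counts were therefore in N2, as for Cul9. The prostacyclin receptor gene Ptgir had 0, 10 and 0 counts against 1, 0 and 0. A pair of PNMA relatives lies in the same interval, of which Pnmal1, 28101 bases upstream, had no count and Pnmal2 had 3 counts in N2 and 1 in S1. In the plot of the Ccdc8 neighbourhood Ccdc8 is the gene with counts in all 3 NR4A1 libraries and next to none in the vector controls.

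**Figure D5:**
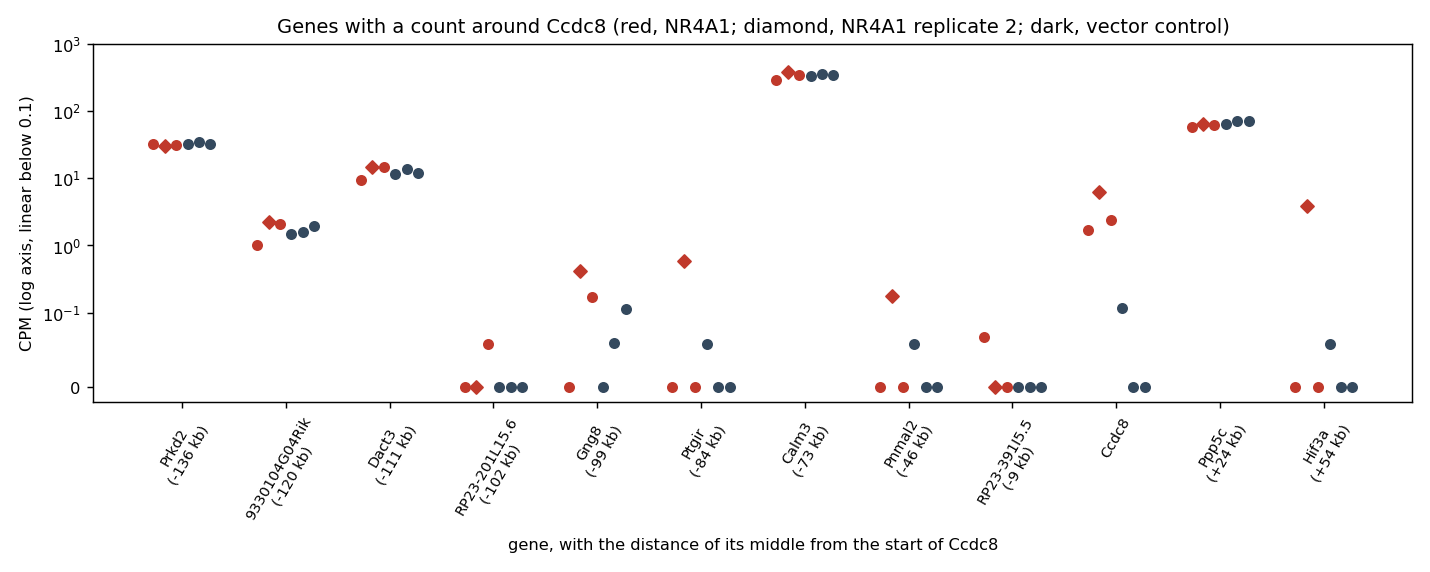
CPM of Ccdc8 and the 11 genes with a count whose middle lies within 150 kb of its start, ordered by that distance in kb, on a log axis that is linear below 0.1 (red, NR4A1; diamond, NR4A1 replicate 2; dark, vector control). The 5 tested neighbours drawn have overlapping groups, and Hif3a has 64 counts in NR4A1 replicate 2 and 1 count in the other 5 libraries.

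The annotation holds genes close to or overlapping the other members. Obsl1 ends 3 bases from Chpf on the same strand and Tmem198 overlaps it on the opposite strand, Mrpl2 ends 198 bases before Cul7, and Gm9754 overlaps Fbxw8 on the opposite strand. Cul9 lies 451 bases from Srf and 954 bases from Dnph1. Gm26904, which had 0 counts in all libraries, spans both Cul7, on its strand, and Cul9, on the opposite strand. Cul7 and Cul9 share 32 stretches of 50 bases, 0.414% of those of Cul7, Obsl1 shares 0.875% with Gm15181, and Fbxw8 shares none.

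The 5 tested genes whose pattern was most like that of Ccdc8 were Gcnt1, Trpm1, Uroc1, Slc38a8 and Nipal1, by root-mean-square distance in log2 CPM over the 6 libraries with each gene centred on its mean. The distances were 0.434, 0.538, 0.554, 0.613 and 0.687, against a median of 2.27 over all tested genes. Gcnt1, an enzyme that branches O-glycans, had 33, 74 and 30 counts in N1 to N3 and 0 in all vector controls. Trpm1, a cation channel gene, had 20, 38 and 38 counts and Uroc1, a histidine-breakdown enzyme gene, had 29, 62 and 66, again with 0 in all vector controls. Slc38a8, an amino acid transporter gene, had 18, 31 and 18 counts against 0, and Nipal1, a magnesium transporter-like gene, had 75, 163 and 68 against 12, 10 and 6. None of the 5 lies within 250 kb of Ccdc8, and their likeness was fixed by the same 6 libraries that chose Ccdc8.

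The same motif search was made in the RefSeq windows of these 5 genes, which have 1 window each except Trpm1 with 2 and Gcnt1 with 3. AAAGGTCA was in 0 of the 5 genes and AGGTCA in 3 (Trpm1, Uroc1 and Slc38a8). Of all single windows, 1.51% hold AAAGGTCA and 16.3% hold AGGTCA, and a gene with more windows has more room for a match. No test was made of so small a count. The stretches are shown, in the direction of transcription and with the half-site in capitals, for comparison with that of Ccdc8.
Trpm1, chr7:64185428-64185457: agcctgggagccAGGTCAcgaggctgcctc
Uroc1, chr6:90333173-90333202: cagtgatccaaaTGACCTgccccttatgcc
Slc38a8, chr8:119501760-119501789: gacatcctgatcAGGTCAaacccctccccc

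The half-site began 19 bases before the start in Trpm1, at the second of its windows, which is 31.6 kb inside the gene as annotated in the table, 104 bases before it in Uroc1, on the opposite strand, and 79 bases before it in Slc38a8. None of these was preceded by the A that precedes the half-site of Ccdc8. Gcnt1 and Nipal1 had no match in their windows.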

How the data were processed

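Strand-specific total RNA libraries were sequenced by the authors, and the counts per gene and library were deposited with the FPKM that the authors computed from them. HISAT2 2.0.4 and the build GRCm38.p4 are named in the submitters' processing notes, and the counting program and annotation are not given in the sources used here. The deposited FPKM equal the counts scaled by library total and a fixed length per gene, with a largest deviation of 0.00547% over 12184 genes. Of the identifiers, 80.8% have the same position in GENCODE M21. Libraries of a group differed by more than counting error (chi-square per degree of freedom 9.36 to 41.8) and all 6 were used.

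The default low-count filter, TMM normalization and the quasi-likelihood test with Benjamini-Hochberg adjustment were computed from the counts with edgeR 4.0.16 in R 4.3.3 (limma 3.58.1 and DESeq2 1.42.0 as alternatives), on methods tested on simulated data. Fold changes of untested genes used a prior count of 2. The 2-fold threshold follows the study, whose unpaired t-tests were not used for counts. Intervals of count ratios are exact and cover counting error only. Sequences are from RefSeq and were searched with Python 3.11.15. A genome sequence and proteins were not used here. The members, lists, markers and motifs were chosen with earlier results of these data known. Named were the members, the highest and lowest tested gene of each list, genes near Ccdc8 (within 250 kb) or 5 kb of another member, of which some are counted without being named, the 5 genes most like Ccdc8, and Nr4a1. The PNMA genes at 0, Igf2, Igfbp3, Igfbp7 and the family levels were added after their values were seen. The alternatives were other tests, normalizations and filters, the replicate block, FPKM, Nr4a1 left out, and each library left out. Merged exon lengths were a later addition, made with the values known. The values of 1 neighbouring gene are left out.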

Additional observations from a re-analysis of the deposited data

How the results depend on the processing

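Of the partners and list genes that each alternative tested, 0 were called under all 16 alternatives. Over all tested genes the calls ran from 3 of 13222 (without NR4A1 replicate 3) to 68 of 12941 (exact test). With so few calls in all, 0 among these genes says little about them. Cul9 was tested only with DESeq2, without the count filter and with a mean of at least 10 counts. Under the other alternatives it was filtered out and could not be called. Cul7 and Fbxw8 stayed negative in 16 of 16, at log2 fold changes of -0.16 to -0.09 and -0.17 to -0.06 when libraries were left out in turn. Obsl1 ran from -0.11 to 0.08 and turned positive without NR4A1 replicate 1 (0.041) and without vector control replicate 1 (0.080), and had no call in either. Cul9 ran from -0.75 (without NR4A1 replicate 2) to 1.87 when libraries were left out, as differences of mean log2 CPM with a prior count of 2. DESeq2 gave 3.08, a fold change from its own model and so a different measure. Of the 83 counts of Cul9, 73 were in NR4A1 replicate 2. The cause of the shifts between the libraries left out was not tested. The ratio of Ccdc8 ran from 52.6 (without NR4A1 replicate 2) to 111 (without NR4A1 replicate 1), and had no value without vector control replicate 1, where the vector count was 0. The FPKM fit left out Obsl1 and Cul9 as too low, and Cul9 had an adjusted p of 0.812 with a mean of at least 10 counts.

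The number of genes called, 22, was 65 with DESeq2, 68 with the exact test, 8 with a mean of at least 10 counts, 7 with limma on log2(FPKM + 1), and 3 to 28 when libraries were left out in turn, with 4 and 3 without NR4A1 replicates 1 and 3 and 6 without each vector control. With the replicate number as a block it was 5. Same-numbered libraries correlated by -0.01, -0.05 and 0.25 in their deviations from the group means, so the numbers were not taken as pairs, and no partner was called under the replicate block. At these totals a level under 0.171 to 0.200 CPM cannot be told from 0, which limits Ccdc8 and Cul9 in the vector controls.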
